A study of Mus musculus with 8 samples.

Results

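The fibrillar collagens are the chains that assemble into the striated fibrils of bone and cartilage matrix. The 9 chains described here are Col1a1, Col1a2, Col3a1, Col5a1, Col5a2, Col11a1, Col11a2, Col24a1 and Col27a1. They were chosen by gene symbol, and all 9 were present among the 32285 genes of each matrix.

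The study asked what the SOXC transcription factors SOX4, SOX11 and SOX12 do in the osteoblast lineage of growing and adult mice. Single-cell RNA-seq was run on cells released from femurs and tibiae after the periosteum had been scraped off, the marrow flushed out and haematopoietic cells depleted. Each of 8 libraries came from 1 female mouse, with 2 mice per genotype at 7 weeks and 2 per genotype at 13 weeks. Per the study, mutants and controls were paired sisters, and the sources used here do not say which library numbers belong to sisters. The controls were Sox4fl/fl Sox11fl/fl Sox12fl/fl, and the mutants, named SOXCOsxCre, carried the same floxed alleles together with Osx-Cre. In this transgene the Sp7 (osterix) promoter drives Cre and doxycycline represses it. The study gave doxycycline in the food until weaning age, so recombination was expected to begin in osterix-expressing cells of juvenile mice. All 4 groups therefore carried floxed Sox genes, and the controls lacked Cre, so that any action of Cre itself cannot be told apart from loss of the Sox genes.

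As background, a fibrillar collagen molecule is a triple helix of 3 chains. Type I collagen, built from Col1a1 and Col1a2 chains, makes up most of the bone matrix. Type III collagen, a homotrimer of Col3a1 chains, co-assembles with type I collagen in soft connective tissue, vessel walls and healing bone and is sparse in mature bone matrix. The type V chains (Col5a1, Col5a2) and the type XI chains (Col11a1, Col11a2) sit inside fibrils of type I and type II collagen, respectively, start fibril assembly and limit fibril diameter. Chains of these 2 types can also mix in the same molecule. Col24a1 and Col27a1 encode minor fibrillar chains, the former known from bone and the latter from cartilage.

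The libraries held 81894604 to 156090286 UMIs, and 6410 to 8753 cells per mouse were kept. Any 2 libraries shared at most 63 cell barcodes. Replicate 1 of each group was sequenced more deeply than replicate 2, with median UMIs per kept cell of 11136 to 13020 against 7123 to 8070, so that replicate number and depth cannot be told apart. Cells were clustered without any collagen gene or Sox4, Sox11 or Sox12, and clusters were named from marker lists that hold no collagen. The named classes were 25319 osteoblast-like (OB-like) cells in 7 clusters, 2610 preosteoblast-like (preOB-like) cells, 3926 Lepr+ mesenchymal stromal (Lepr+ MSC-like) cells, 2072 Lepr+ osteoprogenitor-like (Lepr+ OP-like) cells, 537 Sca1+ MSC-like cells, 2315 growth plate chondrocyte-like (GPC-like) cells, 2305 hypertrophic GPC-like cells, 1003 pericyte-like, 3517 endothelial-like and 3805 haematopoietic-like cells. In the Sca1+ MSC-like cluster, 13 of 14 listed markers were enriched, and its leading genes included Aspn, Igfbp6 and Sfrp2 beside Col3a1, Postn and Mmp13. Its cell number ranged from 16 to 167 per mouse. A further 3164 cells that carried osteoblast markers but had few UMIs were left unnamed and are not among the OB-like cells. The named classes and these 3164 cells do not cover all kept cells, and the remaining clusters are not described here. As a check of the genotype, Sox4 in OB-like cells stood at 206, 167, 190 and 173 CPM (UMI counts per 1000000 UMIs) in controls and at 59.2, 49.6, 58.8 and 79.5 CPM in mutants, which is -1.59 ± 0.13 on the log2 scale (SE; adjusted p = 0.000799, edgeR). For Sox4 in Sca1+ MSC-like cells the value was -1.32 ± 0.32 (log2), which did not pass (adjusted p = 0.274, edgeR).

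In control mice, each chain had its own distribution over cell types. Levels are given as CPM of the cell type (mean ± SD, n = 4 mice). Because the libraries were made with a 3′ kit, levels of different chains are set side by side without division by length. Whether the chains are captured equally well was not examined.

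**Figure D1:**
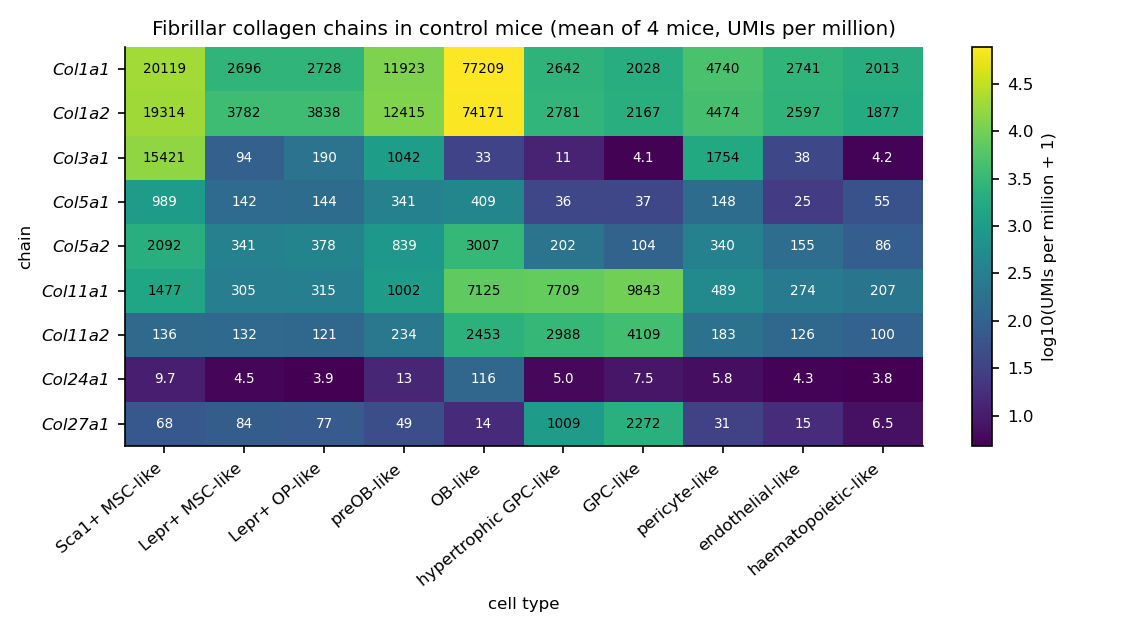
The heat map shows the 9 chains (rows) in 10 cell types of control mice (columns). Colour gives log10(CPM + 1) of the mean of 4 mice. Col1a1 and Col1a2 are brightest in OB-like cells, Col3a1 in Sca1+ MSC-like cells, and Col11a1, Col11a2 and Col27a1 in GPC-like cells.

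The type I chains were the most abundant. Col1a1 (ENSMUSG00000001506, mm10 chromosome 11, 94936224 to 94953042, plus strand) reached 77209 ± 11177 CPM in OB-like cells. It followed with 20119 ± 10151 CPM in Sca1+ MSC-like and 11923 ± 4953 CPM in preOB-like cells. The OB-like range of 61267 to 86669 CPM lay above every other type, whereas the ranges of Sca1+ MSC-like and preOB-like cells overlapped, as did those of preOB-like and pericyte-like cells. Col1a2 (ENSMUSG00000029661, chromosome 6, 4504814 to 4541544, plus strand) had the same order at its top, with 74171 ± 12320 CPM in OB-like, 19314 ± 8530 CPM in Sca1+ MSC-like and 12415 ± 4201 CPM in preOB-like cells. Below these 3 types, both genes lay between 1877 and 4740 CPM on average, down to haematopoietic-like cells, and all of those ranges overlapped each other.

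The low end of that order needs care, because haematopoietic-like cells are not known to make type I collagen. They carried 2013 ± 1020 CPM of Col1a1 and 1877 ± 883 CPM of Col1a2, in UMIs that can come from free RNA released by OB-like cells. Their mean UMIs per cell in each mouse, counted without osteocalcin-rich cells (those that reach the fifth percentile of OB-like cells of the same mouse for UMIs of Bglap and Bglap2), are called the haematopoietic-like background below. For Col1a1 this background was a median of 110.5% of the UMIs per Lepr+ MSC-like cell over the 8 mice, and the Lepr+ MSC-like level was above it in 2 of 8 mice. For Col1a2 it was 76.3%, with 8 of 8 mice above it. For Col3a1 it was 16.1% in Lepr+ MSC-like cells and 0.0702% in Sca1+ MSC-like cells. In OB-like cells, the background amounted to a median of 1.41% for Col1a1, 12.9% for Col3a1, 12.1% for Col5a1 and 43.9% for Col27a1. Erythroid-like cells, one of the 3 classes of this reference, held more Col5a1 UMIs per cell than granulocyte or monocyte-like cells, so that for Col5a1 the reference need not be free RNA alone, and without erythroid-like cells the OB-like figure was 3.56%.

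Col3a1 (ENSMUSG00000026043, chromosome 1, 45311538 to 45349706, plus strand) had its highest level in Sca1+ MSC-like cells. Its level there was 15421 ± 6362 CPM, against 1754 ± 601 CPM in pericyte-like, 1042 ± 669 CPM in preOB-like and 190 ± 80 CPM in Lepr+ OP-like cells. In OB-like cells it was at 33.2 ± 16.9 CPM, and in haematopoietic-like cells at 4.25 ± 1.49 CPM. The Sca1+ MSC-like range did not overlap that of any other type, the ranges of pericyte-like and preOB-like cells overlapped each other, and those of endothelial-like and OB-like cells did so as well. After thinning of every cell to 2000 UMIs, 99.1% ± 1.89 of Sca1+ MSC-like cells held a Col3a1 UMI, against 67.9% ± 19.7 of pericyte-like, 30.6% ± 18.6 of preOB-like, 4.23% ± 2.00 of OB-like and 0.587% ± 0.291 of haematopoietic-like cells (without thinning, 99.1%, 13.9% and 5.77% in Sca1+ MSC-like, OB-like and haematopoietic-like cells). Although Sca1+ MSC-like cells were a small class, they held 33.5% ± 25.8 of all Col3a1 UMIs in control mice, preOB-like cells held 25.1% ± 14.4, OB-like cells 15.2% ± 6.07 and pericyte-like cells 12.9% ± 5.41.

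The type V chains peaked in different cells. Col5a1 (ENSMUSG00000026837, chromosome 2, 27886425 to 28039514, plus strand) was highest in Sca1+ MSC-like cells at 989 ± 409 CPM, then in OB-like cells at 409 ± 67.3 CPM and preOB-like cells at 341 ± 55.2 CPM. Its partner Col5a2 (ENSMUSG00000026042, chromosome 1, 45374321 to 45503282, minus strand, next to Col3a1 and on the opposite strand) was highest in OB-like cells at 3007 ± 433 CPM, then in Sca1+ MSC-like cells at 2092 ± 676 CPM and preOB-like cells at 839 ± 194 CPM. For Col5a1 the Sca1+ MSC-like range was apart from that of OB-like cells, and for Col5a2 these 2 ranges overlapped.

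The type XI chains were shared between cartilage and bone cells. Col11a1 (ENSMUSG00000027966, chromosome 3, 114030540 to 114220718, plus strand) stood at 9843 ± 2272 CPM in GPC-like, 7709 ± 2496 CPM in hypertrophic GPC-like and 7125 ± 772 CPM in OB-like cells, with ranges that overlapped. Its partner Col11a2 (ENSMUSG00000024330, chromosome 17, 34039437 to 34066685, plus strand) was at 4110 ± 453, 2988 ± 693 and 2453 ± 277 CPM in these 3 types, and only the ranges of GPC-like and OB-like cells were apart. In Sca1+ MSC-like cells Col11a1 was at 1476 ± 977 CPM and Col11a2 at 136 ± 64.8 CPM, the latter beside 132 ± 15.5 CPM in Lepr+ MSC-like cells with overlapping ranges. For Col11a2 the haematopoietic-like background was a median of 107.6% of the UMIs per Sca1+ MSC-like cell, with 4 of 8 mice above it, and 199% once osteocalcin-rich cells were also taken out of the Sca1+ MSC-like cells. Because OB-like cells were numerous, they held 77.4% ± 1.91 of Col11a1 and 74.0% ± 2.28 of Col11a2 UMIs.

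The minor chains divided between bone and cartilage. Col24a1 (ENSMUSG00000028197, chromosome 3, 145292472 to 145552011, plus strand) was at 116 ± 14.7 CPM in OB-like cells and at most 12.7 CPM on average elsewhere, and OB-like cells held 95.4% ± 0.568 of its UMIs. Col27a1 (ENSMUSG00000045672, chromosome 4, 63214004 to 63334991, plus strand) was at 2272 ± 342 CPM in GPC-like and 1009 ± 256 CPM in hypertrophic GPC-like cells, and these cells held 67.0% ± 2.74 and 24.3% ± 3.79 of its UMIs. In OB-like cells Col27a1 was the lowest of the 9 chains, at 14.0 ± 3.21 CPM, and Lepr+ MSC-like cells held more, at 83.5 ± 11.2 CPM.

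Put together as shares of all UMIs, the 9 chains took 16.5% ± 2.44 in OB-like, 5.96% ± 2.61 in Sca1+ MSC-like, 2.79% ± 0.947 in preOB-like, 2.06% ± 0.383 in GPC-like and 0.758% ± 0.115 in Lepr+ MSC-like cells of control mice. The composition of that pool differed. In OB-like cells Col1a1 made up 46.9% ± 1.2 of it, Col1a2 45.01% ± 1.2, Col11a1 4.37% ± 0.467 and Col3a1 0.0202% ± 0.00967. In Sca1+ MSC-like cells the same chains made up 33.2% ± 4.5, 32.3% ± 1.62, 2.31% ± 0.924 and 26.4% ± 5.54. In GPC-like cells Col11a1 made up 47.9% ± 6.66, Col11a2 20.3% ± 2.68, Col27a1 11.3% ± 2.35 and Col1a1 9.58% ± 4.94. The Col1a1 share was 0.539% ± 0.488 when osteocalcin-rich GPC-like cells were left out and the haematopoietic-like background was subtracted. With the same 2 steps, Col3a1 made up 33.5% ± 10.1 and Col1a1 29.1% ± 7.53 of the pool in Sca1+ MSC-like cells. In pericyte-like cells Col3a1 made up 18.2% ± 9.16 of the pool before these steps and 95.5% ± 1.07 after them. The 2 steps are not told apart in these values. The main fibril of cartilage, type II collagen, is outside this set of chains.

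Ratios of paired chains also varied by cell type. UMIs of Col1a1 per UMI of Col1a2 were 1.04 ± 0.0526 in OB-like cells, 1.02 ± 0.115 in Sca1+ MSC-like cells and 0.948 ± 0.108 in preOB-like cells, and between 0.923 and 1.06 on average in GPC-like, hypertrophic GPC-like, pericyte-like and endothelial-like cells, against 0.694 ± 0.120 in Lepr+ OP-like and 0.711 ± 0.0436 in Lepr+ MSC-like cells (control mice). No Lepr+ MSC-like value reached the lowest OB-like value (0.768 against 0.974), and haematopoietic-like cells were at 1.06 ± 0.0434, close to the OB-like ratio. The Lepr+ ratios include background UMIs, which for Col1a1 were a median of 110.5% of the level in Lepr+ MSC-like and 93.3% in Lepr+ OP-like cells, and for Col5a1 79.9% and 78.8%. The Col1a1 to Col1a2 ratios of GPC-like, hypertrophic GPC-like, pericyte-like and endothelial-like cells include background UMIs as well. Without osteocalcin-rich cells and with the background subtracted, both chains were 0% of the pool in pericyte-like and endothelial-like cells of control mice. Col1a1 was then on average 0.539% of the pool in GPC-like and 0.593% in hypertrophic GPC-like cells of control mice. The ratios of these types are therefore not read as traits of the cells. UMIs of Col5a2 per UMI of Col5a1 were 7.38 ± 0.318 in OB-like cells against 2.17 ± 0.307 in Sca1+ MSC-like, 2.61 ± 0.294 in Lepr+ OP-like, 2.43 ± 0.293 in Lepr+ MSC-like and 2.44 ± 0.226 in preOB-like cells. The values were 6.25 ± 0.541 in endothelial-like and 5.50 ± 0.970 in hypertrophic GPC-like cells, where the background of Col5a1 was a median of 450.1% and 122.5% of its level (0 of 8 and 3 of 8 mice above it), so no order of these 2 types against OB-like cells is read from them. Col11a1 exceeded Col5a1 by 17.7 ± 2.50 times in OB-like cells and by 1.39 ± 0.517 times in Sca1+ MSC-like cells. These ratios are descriptions of clusters and were not tested between cell types.

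**Figure D2:**
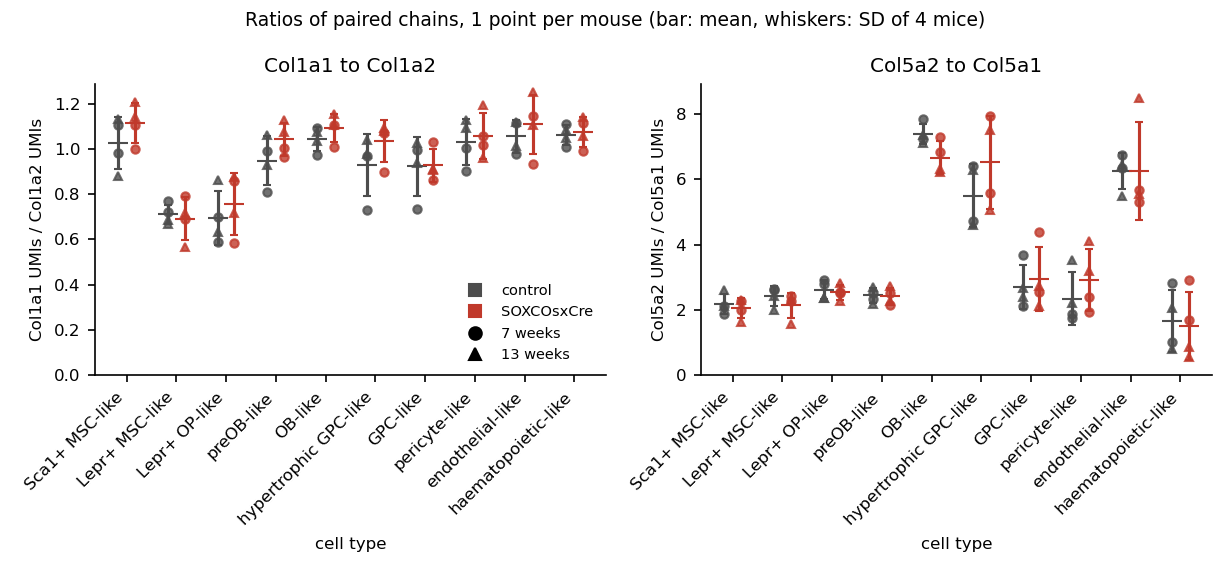
The plots show ratios of UMIs of paired chains by cell type (x axis), with 1 point per mouse, the mean as a bar and the SD of 4 mice as whiskers. Control and SOXCOsxCre mice are drawn in different colours and the 2 ages with different symbols. The Lepr+ OP-like and Lepr+ MSC-like cells sit lowest for Col1a1 to Col1a2 with control means of 0.694 and 0.711, and in Col5a2 to Col5a1 the control values of OB-like cells are 7.10 to 7.83. The high Col5a2 to Col5a1 values of endothelial-like and hypertrophic GPC-like cells rest on Col5a1 levels near or below the background.

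Within OB-like cells, the chains differed between clusters. In 6 of the 7 clusters, the 9 chains took 13.5% to 16.8% of UMIs in control mice, whereas in the cluster led by Col1a1, Col11a2, Col1a2 and Col22a1 they took 29.0% ± 3.97 (the collagen-rich cluster). The cells of that cluster had a mean of 7.24% mitochondrial and 3.90% ribosomal protein UMIs, and a median of 8074 UMIs per cell against 14264 to 16900 in the other clusters, so that Col1a1 per cell (1211 UMIs) was within the range of the other clusters (969 to 1421 UMIs). In the cluster whose leading genes include Phex, Ptprz1 and Dmp1, genes known from cells on the way to osteocytes, Col24a1 was at 220 ± 22.6 CPM and Col5a1 at 290 ± 60.2 CPM. The Col24a1 range (187 to 237 CPM) overlapped that of the collagen-rich cluster (205 ± 24.7 CPM, 186 to 240 CPM) and no other, and the Col5a1 range (236 to 349 CPM) overlapped those of 5 of the other 6 clusters. The cluster whose leading genes include Thbs4, Cthrc1 and Postn had the lowest Col24a1 (63.8 ± 12.9 CPM), Col11a1 (4505 ± 618 CPM) and Col1a1 (63800 ± 11249 CPM) of the 7. Its ranges of Col24a1 and Col11a1 were apart from those of the other clusters, and its Col1a1 range overlapped all but that of the collagen-rich cluster.

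**Figure D3:**
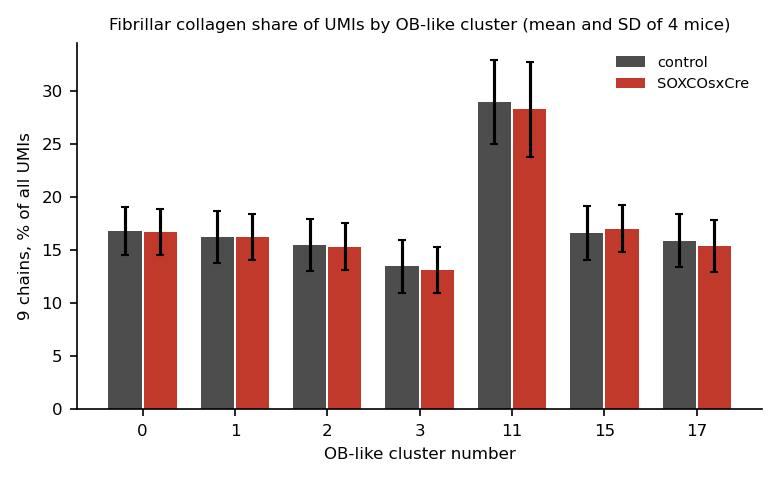
The bars give the percent of all UMIs taken by the 9 chains together (y axis) in each of the 7 OB-like clusters (x axis), as the mean of 4 control or 4 SOXCOsxCre mice with SD as whiskers. Cluster 11 stands at 29.0% in control and 28.3% in SOXCOsxCre mice, and the other 6 clusters stand between 13.2% and 17.03%.

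The genes most like each chain were found by Pearson correlation of log2(CPM + 1) over 36 points (9 cell types in 4 control mice) among 8601 genes. The points share libraries and cell types, so these correlations are descriptions. Of the genes below, Prss35, Thbs2, Postn, Nbl1, Serpinf1, Bglap2, Bglap and Comp were among the markers that named the cell types. Their likeness to a chain is thus partly set by the naming. Col1a1 and Col1a2 were each other's nearest gene (r = 0.99), followed by Prss35 for Col1a1 (r = 0.93) and by Col5a2 for Col1a2 (r = 0.95). Nearest to Col3a1 were Anpep (r = 0.94), Thbs2 (r = 0.91) and Postn (r = 0.91). Nearest to Col5a1 were Nbl1 and Mrc2 (both r = 0.92), and nearest to Col5a2 was Serpinf1 (r = 0.96). The type XI chains had a matrix gene of bone and a cartilage gene at the top of their lists, Sparc for Col11a1 (r = 0.95) and Col2a1 for Col11a2 (r = 0.96). Col24a1 was nearest to the osteocalcin genes Bglap2 (r = 0.88) and Bglap (r = 0.86), and Col27a1 to Cyp51 and Comp (both r = 0.96) and to Sox9 (r = 0.94). Among the chains themselves, the lowest correlation was between Col3a1 and Col11a2 (r = -0.69).

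The study compared mutant with control mice. For each cell type the UMIs of a mouse were added up and fitted with edgeR, and levels below are CPM after TMM scaling. Over 78 fits of a chain in a cell type, with both ages averaged, 1 passed an adjusted p of 0.05, namely Col3a1 in OB-like cells, where 1.45% of 14580 tested genes passed. At an unadjusted p of 0.05, 9 of the 78 passed, 5 of them in pericyte-like cells. The share of all genes at that unadjusted p is not set beside this count, so it is not read as an excess of chains. DESeq2 also called 1. With the replicate number as a block, 4 passed, where the share of genes passing was 8.96% for OB-like and 2.81% for preOB-like cells, and the 3 added calls are given below beside their genes. The block also raised the number of all genes called in OB-like cells from 212 to 1307.

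In OB-like cells, Col3a1 stood at 42.7 and 49.4 CPM in the control mice and at 99.9 and 113 CPM in the mutant mice at 7 weeks. At 13 weeks it stood at 14.9 and 21.9 CPM in control and at 74.2 and 30.4 CPM in mutant mice. Both mutant mice thus lay above both control mice at each age, while the second mutant mouse at 13 weeks was below both control mice of 7 weeks. Averaged over the ages, the log2 fold change was 1.36 ± 0.24 (SE, adjusted p = 0.028, edgeR). At 7 weeks alone it was 1.21 ± 0.34 (adjusted p = 0.357) and at 13 weeks 1.51 ± 0.35 (adjusted p = 0.178), and neither passed in edgeR, where 0.137% and 0.267% of genes were called. No chain passed at 7 or at 13 weeks in any cell type by edgeR or DESeq2 (5 of 78 fits at an unadjusted p of 0.05 at each age, edgeR, a count without the matching share of all genes). The share of genes called was, at 7 and at 13 weeks, 0.037% and 0.0741% in preOB-like, 0.154% and 0.0867% in Lepr+ OP-like, and 0.00869% at both ages in Lepr+ MSC-like cells. In Sca1+ MSC-like cells it was 0% and 0.0205%, and in pericyte-like cells 0% and 0.0151%. With the replicate block the 13-week value was 1.43 ± 0.31 and passed (adjusted p = 0.0356, 3.53% of genes called), and the averaged value was 1.32 ± 0.21 (adjusted p = 0.00363). The difference between the ages was 0.30 ± 0.48 (adjusted p = 1.00, edgeR) and no chain was called for it in any cell type, where 0% of genes were called except 0.0301% in pericyte-like cells. The averaged call was lost when any 1 of 5 mice was left out, at adjusted p of 0.0562 to 0.106 and log2 fold changes of 1.24 to 1.42. In the same fits without 1 mouse, the 13-week call was gained without the second mutant mouse of 13 weeks, with 2.02 (adjusted p = 0.0244). The 5 mice whose removal ended the averaged call were both controls and both mutants of 7 weeks and the first control mouse of 13 weeks.

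The share of OB-like cells with a Col3a1 UMI after thinning to 2000 UMIs was 5.28% and 6.54% in control and 10.6% and 11.2% in mutant mice at 7 weeks, and 2.54% and 2.58% against 9.49% and 4.59% at 13 weeks. The corresponding background in haematopoietic-like cells was 0.444% and 0.533% against 1.43% and 2.15% at 7 weeks, and 0.358% and 1.01% against 2.79% and 0.131% at 13 weeks. In mean UMIs per haematopoietic-like cell, Col3a1 was at 0.104 and 0.0945 in control and 0.106 and 0.123 in mutant mice at 7 weeks, and at 0.0747 and 0.0443 against 0.310 and 0.0131 at 13 weeks. The highest and the lowest of the 8 values were thus both from mutant mice of 13 weeks, and whether these UMIs were free RNA was not tested. When the haematopoietic-like background was subtracted, the log2 fold change stayed at 1.33 and the adjusted p became 0.445, and no gene was then called in OB-like cells. With a background taken without erythroid-like cells, a setting chosen after seeing the data, it was 1.31 ± 0.31 (adjusted p = 0.331), again with no gene called (746 at an unadjusted p of 0.05, edgeR). The 14 markers of Sca1+ MSC-like cells, which do not include Col3a1, were all detected in OB-like cells at a summed level of 713 to 876 CPM in control and 694 to 777 CPM in mutant mice. These ranges overlapped, and the part of Sca1+ MSC-like cells in the Col3a1 difference was not tested. The osteoblast markers in OB-like cells summed to 100300 to 127200 CPM in control and 119400 to 189900 CPM in mutant mice, and their part in the result was not tested.

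**Figure D4:**
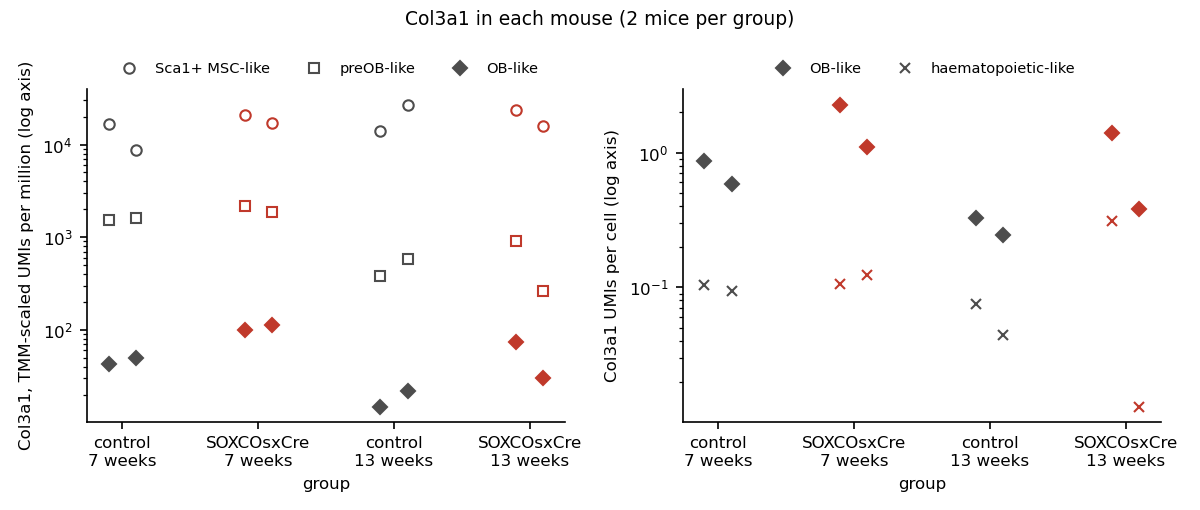
Col3a1 is plotted for each mouse on log axes by group (x axis, 2 mice per group), as CPM after TMM scaling in Sca1+ MSC-like, preOB-like and OB-like cells on the left and as mean UMIs per cell in OB-like and haematopoietic-like cells on the right. In OB-like cells, control mice sit at 14.9 to 49.4 CPM and mutant mice at 30.4 to 113 CPM, and both genotypes are lower at 13 than at 7 weeks.

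The promoter of Col3a1 is shown because this chain carried the genotype difference, and that of Col1a2 because it is the main bone chain for which a promoter was at hand. Sequences are RefSeq promoters of GRCm38.p6, 250 bases up to the start site, and 7 of the 9 chains had one. SOX factors are known to bind the core ACAAAG, here searched on both strands (also as CTTTGT). It occurred in 1 of 7 chains, Col3a1, and in 16.5% of 32851 promoters. TATAAA (or TTTATA) occurred in 2 of 7, Col3a1 and Col11a2, and in 12.4% of all. CCAAT (or ATTGG) occurred in 2 of 7, Col11a1 and Col1a2, and in 33.9% of all. These motifs do not overlap each other. In the sequences, capitals mark ACAAAG, starting 176 bases before the start site, and TATAAA, starting 117 bases before it, in Col3a1 (chr1:45311288-45311537, plus strand), and CCAAT, starting 109 bases before the start site, in Col1a2 (chr6:4505368-4505617, plus strand). The RefSeq start of Col1a2 lies inside the span given for the gene above, which is from GENCODE and begins at 4504814, so that the 2 annotations place the start of this gene differently. A match in letters is no binding site.
Col3a1: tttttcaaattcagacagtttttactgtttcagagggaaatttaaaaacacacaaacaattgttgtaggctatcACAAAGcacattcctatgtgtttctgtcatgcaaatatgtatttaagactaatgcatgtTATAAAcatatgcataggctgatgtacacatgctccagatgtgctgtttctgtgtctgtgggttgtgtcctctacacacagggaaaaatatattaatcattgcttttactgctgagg
Col1a2: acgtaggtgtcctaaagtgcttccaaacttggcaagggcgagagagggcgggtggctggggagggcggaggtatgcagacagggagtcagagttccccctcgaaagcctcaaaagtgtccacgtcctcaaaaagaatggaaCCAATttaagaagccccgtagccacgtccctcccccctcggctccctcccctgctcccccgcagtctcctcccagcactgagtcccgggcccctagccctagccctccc

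The other 8 chains did not pass the test in OB-like cells, with log2 fold changes between -0.26 and 0.17. Col1a1 was at 87591 and 74011 CPM in control and 93355 and 80076 CPM in mutant mice at 7 weeks, and at 80487 and 57726 against 86515 and 64994 CPM at 13 weeks. These groups overlapped, and the log2 fold change was 0.12 ± 0.20 (adjusted p = 0.918, edgeR). Each mutant mouse was above the control mouse of the same number and age, and with the replicate block the value was 0.12 ± 0.095 and did not pass (adjusted p = 0.497). Col1a2 gave 0.05 ± 0.20 and Col5a2 -0.00 ± 0.17. Col11a1 was at 8360 and 6502 CPM in control and 6938 and 6069 CPM in mutant mice at 7 weeks, and at 6562 and 6234 against 5102 and 5106 CPM at 13 weeks, where both mutant mice were lower. Its log2 fold change was -0.26 ± 0.14 (adjusted p = 0.564, edgeR), beside 0.17 ± 0.16 for its partner Col11a2. Col24a1 was at 139 and 105 against 128 and 96.0 CPM at 7 weeks, and at 107 and 99.0 against 93.0 and 78.7 CPM at 13 weeks. Its log2 fold change of -0.19 ± 0.13 did not pass (adjusted p = 0.686, edgeR), and with the replicate block it was -0.20 ± 0.05 and passed (adjusted p = 0.0422).

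**Figure D5:**
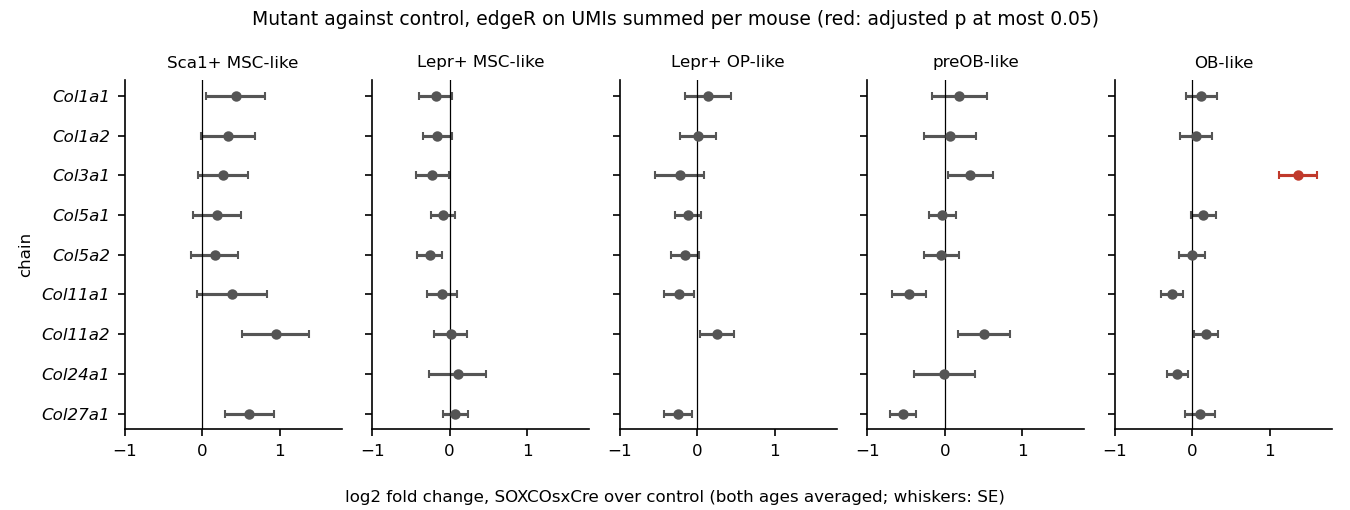
The panels give the log2 fold change of each chain (y axis), SOXCOsxCre over control with both ages averaged (x axis), in 5 cell types of the osteogenic lineage, with SE as whiskers, from edgeR on UMIs summed per mouse. Col3a1 in OB-like cells (1.36) is the only one of these values past the threshold, and all 8 tested chains lie right of 0 in Sca1+ MSC-like cells without passing it.

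In Sca1+ MSC-like cells none of the 8 tested chains passed, and 0.0205% of 4869 genes did (347 genes at an unadjusted p of 0.05, edgeR, and 25 genes with DESeq2). Col24a1 was too low to test, at 0 to 4 UMIs per control mouse and 3 to 73 UMIs per mutant mouse. Cell numbers also differed, at 16 to 57 per control and 32 to 167 per mutant mouse. Per cell, Col24a1 was at 0.0776 ± 0.0791 UMIs in control and 0.210 ± 0.169 UMIs in mutant mice, with overlapping ranges. Col1a1 was at 24617 and 13929 CPM in control and 22395 and 28067 CPM in mutant mice at 7 weeks, and at 11013 and 37732 against 34643 and 33092 CPM at 13 weeks. The control mice spanned the whole range, and the log2 fold change was 0.43 ± 0.38 (adjusted p = 0.915, edgeR). Col3a1 was at 16642 and 8688 against 21082 and 17027 CPM at 7 weeks, and at 14171 and 27039 against 23523 and 15998 CPM at 13 weeks, a difference of 0.26 ± 0.32 (log2, adjusted p = 0.958, edgeR). Col11a2 had the largest value, 0.95 ± 0.43 (adjusted p = 0.689, edgeR), from 97.0, 156, 81.4 and 252 CPM in control and 111, 419, 342 and 267 CPM in mutant mice. The background of this chain in these cells is given above. The fold changes of all 8 tested chains were positive, with a median of 0.36 (range 0.16 to 0.95) beside -0.01 over all genes tested. In the same cells, the summed osteoblast markers were at 4738 to 10560 CPM in control and 8181 to 24540 CPM in mutant mice, and the 14 Sca1+ MSC markers at 10720 to 18230 against 7301 to 10460 CPM. The 6 tenocyte markers were at 40.2 to 72.0 CPM in control mice and at 52.3, 540, 2014 and 68.9 CPM in mutant mice, with all 6 detected in the 2 high ones, and 7 Schwann cell markers reached 980 CPM in the first control mouse of 13 weeks against at most 43.6 CPM in the others. The part of these cells in the collagen values was not tested. Of the pool of the 9 chains, no share passed, with Col3a1 at 26.4% ± 5.54 in control and 23.9% ± 4.36 in mutant mice (p = 0.457, adjusted 0.848, exact two-sided permutation test, n = 4 per genotype) and Col1a1 at 33.2% ± 4.5 and 36.02% ± 3.55 (p = 0.371, adjusted 0.848, same exact permutation test, n = 4).

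In preOB-like cells none of the 9 chains passed, where 0.685% of 10803 genes did (913 genes at an unadjusted p of 0.05, edgeR, and 77 genes with DESeq2). Col27a1 was at 59.7 and 39.3 CPM in control and 42.3 and 37.96 CPM in mutant mice at 7 weeks, and at 48.5 and 48.1 against 28.9 and 28.1 CPM at 13 weeks. The averaged log2 fold change was -0.53 ± 0.17 (adjusted p = 0.265, edgeR). With the replicate block it was -0.53 ± 0.13 and passed (adjusted p = 0.0344). Col11a2 was at 141 and 187 against 333 and 255 CPM at 7 weeks, and at 480 and 145 against 523 and 187 CPM at 13 weeks. Each mutant mouse was above the control mouse of the same number and age, the log2 fold change was 0.51 ± 0.33 (adjusted p = 0.795, edgeR), and with the block it was 0.54 ± 0.13 and passed (adjusted p = 0.0379), as it did at 7 weeks alone with 0.85 ± 0.19 (adjusted p = 0.0409, 1.06% of genes called). Col11a1, the partner chain, had a log2 fold change of -0.46 ± 0.22 (adjusted p = 0.623, edgeR), and -0.47 with the block (adjusted p = 0.0724). Col3a1 was at 1520 and 1633 against 2168 and 1882 CPM at 7 weeks and at 377 and 579 against 908 and 265 CPM at 13 weeks, a log2 fold change of 0.33 ± 0.29 (adjusted p = 0.893, edgeR). Osteocalcin-rich cells made up 22.5%, 9.23%, 34.9% and 5.78% of preOB-like cells in control and 12.04%, 5.69%, 20.0% and 11.8% in mutant mice. Their lower limit was set in each mouse and itself differed, at 53, 37, 50 and 69 UMIs of Bglap and Bglap2 in control and 258, 74, 280.2 and 64.25 UMIs in mutant mice, so that these percentages are not counts above 1 common level. Without these cells, a setting chosen after seeing the data, Col11a2 was at 0.23 ± 0.28 (adjusted p = 0.932, edgeR). The haematopoietic-like background was a median of 65.2% of the Col11a2 UMIs per preOB-like cell, with 5 of 8 mice above it, and 131% without the osteocalcin-rich preOB-like cells (3 of 8 mice above it).

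In pericyte-like cells, all 8 tested chains had positive fold changes, with a median of 0.77 beside -0.01 over all genes tested, but none passed, where 0.0151% of 6644 genes did (405 genes at an unadjusted p of 0.05, 5 chains among them, edgeR). Col1a1 was at 3008 and 3426 CPM in control and 13102 and 4416 CPM in mutant mice at 7 weeks, and at 10854 and 2434 against 9459 and 20531 CPM at 13 weeks, a log2 fold change of 1.31 ± 0.42 (adjusted p = 0.463, edgeR). The haematopoietic-like background was a median of 82.5% of the Col1a1 UMIs per pericyte-like cell (range 6.54% to 173.8%, 4 of 8 mice above it) and 140.5% for Col11a2 (12.6% to 247.3%, 3 of 8 mice above it). Without the osteocalcin-rich pericyte-like cells it was 164% and 250%. Median Col1a1 UMIs per cell were 13 and 9 in control and 14 and 8 in mutant mice at 7 weeks. At 13 weeks they were 14 and 4 against 11 and 4. Mean Col1a1 UMIs per cell of mutant mice were 84.87 and 13.88 at 7 weeks and 51.4 and 87.29 at 13 weeks. Without osteocalcin-rich cells these means were 50.48 and 11.22, and 12.35 and 3.661. In control mice the latter means were 15.22 and 9.583, and 16.3 and 5.905. The summed osteoblast markers moved with Col1a1, from 2158 to 14510 CPM in control to 3818 to 54220 CPM in mutant mice, and their part was not tested. Without the first mutant mouse of 13 weeks, Col11a2 was at 1.62 ± 0.30 in these cells, against 1.31 ± 0.36 with all mice (adjusted p = 0.290, edgeR). Over all settings, the log2 fold change of Col11a2 lay between 0.30 and 5.60 and that of Col1a1 between 0.33 and 8.11. In Lepr+ MSC-like cells (0.183% of genes called), Lepr+ OP-like cells (0.761%), GPC-like, hypertrophic GPC-like and endothelial-like cells (0% each), no chain was called by edgeR or by DESeq2. The largest value there was for Col3a1 in GPC-like cells, 1.93 ± 0.71 (adjusted p = 1.00, edgeR), which rested on 1.14 to 49.8 CPM per mouse, highest in the second mutant mouse of 7 weeks, where the haematopoietic-like background was a median of 83.7% over the 8 mice.

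Shares of the pool and the ratio of Col1a1 to Col1a2 were compared as well, 89 values over the cell types, by exact two-sided permutation tests of 4 against 4 mice, whose smallest possible p is 0.0286. After adjustment over the 89 none passed, but at least 51 of them would have had to reach that smallest p for any to pass, so that this count says little about the shares. Col11a1 in OB-like cells was the single share whose genotypes did not overlap, with 4.37% ± 0.467 in control and 3.48% ± 0.385 in mutant mice (exact permutation p = 0.0286, adjusted 0.789, lower in 4 of 4 mutant mice than in the control of the same age and number). Col24a1 had 0.0708% ± 0.00682 in control and 0.0586% ± 0.00417 in mutant mice (exact permutation p = 0.0571, adjusted 0.789), and Col3a1 0.0202% ± 0.00967 and 0.0461% ± 0.0190 (exact permutation p = 0.0571, adjusted 0.789). The ratio of Col1a1 to Col1a2 in OB-like cells, the tested ratio of this cell type, was 1.04 ± 0.0526 in control and 1.09 ± 0.0610 in mutant mice, without passing (exact permutation p = 0.257, adjusted 0.789). This ratio was higher in 4 of 4 mutant mice than in the control of the same age and number. All 4 such pairs went in 1 direction for 24 of the 89 values. With random directions, this has a probability of 0.125 for a single value. Shares of a pool depend on each other and the numbers go with depth, so no genotype difference is read from this count. The other 5 ratios were not tested, and in 3 of 45 comparisons over the cell types their genotypes did not overlap, named here after their values were seen. Beside this, the CPM of single genes did not overlap between genotypes for 6.23% of the genes tested in OB-like cells (909 of 14580) and 4.01% in preOB-like cells (433 of 10803), so that the 3 ratios are listed as values only. Col11a2 to Col11a1 in OB-like cells was 0.304 to 0.415 in control and 0.419 to 0.587 in mutant mice. Col5a2 to Col1a1 in OB-like cells was 0.0378 to 0.0406 against 0.0350 to 0.0365, and Col11a1 to Col5a1 in preOB-like cells was 2.48 to 3.36 against 1.59 to 2.47.

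The design also allowed 13-week mice to be compared with 7-week mice, averaged over genotype. The sources used here do not give the day of preparation, so age cannot be told apart from it. Of the 78 fits, 6 passed and all 6 were lower at 13 weeks. DESeq2 called 7. In preOB-like cells Col3a1 had a log2 fold change of -1.75 ± 0.30 (adjusted p = 0.00645, edgeR, where 1.93% of genes were called), from 1520 to 2168 CPM in the 4 mice of 7 weeks to 265 to 908 CPM in the 4 mice of 13 weeks. These ranges did not overlap, and the call was kept without any 1 mouse and was lost with subtraction of the background (-1.78, adjusted p = 0.180). In OB-like cells Col3a1 had -1.17 ± 0.24 (adjusted p = 0.0454, edgeR, 1.78% of genes called), from 42.7 to 113 CPM to 14.9 to 74.2 CPM. This call was lost without any 1 of the same 5 mice as the genotype call (adjusted p of 0.0768 to 0.146) and with subtraction of the background (-1.30, adjusted p = 0.562). In hypertrophic GPC-like cells, where 6.35% of genes were called, Col5a1 had -0.88 ± 0.19 (adjusted p = 0.0202), Col5a2 -0.98 ± 0.24 (adjusted p = 0.0384) and Col24a1 -1.34 ± 0.34 (adjusted p = 0.0387, all edgeR). In endothelial-like cells, with 2.78% of genes called, Col11a1 had -0.76 ± 0.19 (adjusted p = 0.0477, edgeR). Each of these 4 calls was lost when some single mouse was left out. That of Col5a1 was lost without the second control mouse of 7 weeks or the second mutant mouse of 13 weeks (adjusted p of 0.0739 and 0.115). That of Col5a2 was lost without any 1 of 5 mice (both second mice of 7 weeks, both controls and the second mutant of 13 weeks, adjusted p of 0.0742 to 0.145). That of Col24a1 was lost without the same 5 or the first mutant mouse of 13 weeks (adjusted p of 0.057 to 0.149), and that of Col11a1 without any mouse but the first mutant of 7 weeks (adjusted p of 0.0826 to 0.174). With subtraction of the background Col5a1 was at -8.43 ± 2.72 (adjusted p = 0.160), Col5a2 at -1.18 ± 0.38 (adjusted p = 0.127) and Col24a1 at -2.23 ± 1.01 (adjusted p = 0.223), none passing, and Col11a1 was no longer testable in endothelial-like cells. The calls of Col5a1, Col24a1 and Col11a1 were lost without osteocalcin-rich cells, with -0.80 (adjusted p = 0.0563), -0.76 (adjusted p = 0.257) and -0.50 (adjusted p = 0.235), a setting chosen after seeing the data. The haematopoietic-like background was a median of 123% of the Col11a1 UMIs per endothelial-like cell, with 2 of 8 mice above it, and in hypertrophic GPC-like cells 122.5% for Col5a1 (3 of 8 mice above it, and 43.01% with 7 of 8 mice above it where erythroid-like cells were left out of the reference), 33.9% for Col24a1 and 24.9% for Col5a2. No chain was called in GPC-like cells, where 3.53% of genes were, nor in Sca1+ MSC-like cells, where 0% were (220 genes at an unadjusted p of 0.05, edgeR, and 4 with DESeq2). Col3a1 in Sca1+ MSC-like cells had 0.38 ± 0.32 (adjusted p = 1.00, edgeR).

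Genes that make, export and crosslink these chains were listed in 4 groups. In OB-like cells, where 1.45% of all genes were called, none of the listed genes was called between genotypes. The 21 genes of chain modification and folding, such as prolyl and lysyl hydroxylases, had a median log2 fold change of 0.05, the 12 genes of collagen secretion -0.00, the 26 tested of 35 other collagens -0.07, and the 13 tested of 15 genes of propeptide removal and crosslinking 0.16, beside -0.00 over all genes tested. Over the 5 cell types of the osteogenic lineage, 1 of 326 fits of a listed gene was called (0.307%), and 37 had an unadjusted p of at most 0.05. The share of all genes at that unadjusted p is not set beside the 37, so no excess of listed genes is read from them. The 1 call was for Lox, the enzyme that begins crosslinking of fibrils, higher in mutant Lepr+ OP-like cells. Lox stood at 212 and 157 CPM in control and 264 and 244 CPM in mutant mice at 7 weeks. At 13 weeks it stood at 115 and 95.7 against 172 and 263 CPM. The log2 fold change was 0.75 ± 0.17 (adjusted p = 0.0478, edgeR), close to the threshold, in a cell type where 0.761% of genes were called. How this call depends on single mice and settings is not given here.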

How the data were processed

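The 8 libraries were made with a 10x Genomics 3′ kit. The authors deposited unnormalized UMI counts per gene and barcode, and the submitters' processing notes name Cell Ranger 6.1.2, mm10 and Seurat 4.3. Barcodes with 200 to 6000 genes and at most 10% mitochondrial UMIs were kept, and 9.67% to 11.3% per library were removed as doublets by the share of simulated doublets among their neighbours. Cells were integrated in Seurat 5.3.0 (2000 variable genes without collagens and without Sox4, Sox11 and Sox12, 30 components) and clustered with leidenalg 0.10.2 at resolution 1. A cluster was named when at least 3 listed markers were 2-fold enriched, and clusters under 33.3% of their library's median UMIs stayed unnamed. The cell types rest on these rebuilt names.

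Counts were summed per mouse and cell type (at least 10 cells) and tested with edgeR 4.0.16 (TMM scaling, filterByExpr, quasi-likelihood test, 4 group means, 2 mice each), with Benjamini-Hochberg adjustment over all genes of a cell type and a threshold of 0.05. SE is the log2 fold change divided by the root of F. The test was also run on counts simulated from its own model without pairing or age effects, which does not show that the model holds for these mice. DESeq2 1.42.0 was an alternative. Mice of 1 group are separate animals. Same-numbered mice of an age deviated together in OB-like (correlation 0.41 at 7 and 0.37 at 13 weeks), preOB-like (0.31 and 0.20), Lepr+ MSC-like (0.32 and 0.13), Lepr+ OP-like (0.30 and 0.18) and endothelial-like cells (0.27 and 0.16), so a fit with the pair as block was added. Per the study, mutants and controls were paired sisters, but the labels do not say what a number marks, and the number also goes with depth. The fit without the block was therefore kept as the main one, and block values are given beside it. In the other types the correlations were 0.35 and 0.095 (hypertrophic GPC-like), 0.26 and -0.050 (GPC-like), 0.16 and 0.055 (pericyte-like) and 0.0059 and 0.061 (Sca1+ MSC-like). UMIs per haematopoietic-like cell (erythroid-like, haematopoietic progenitor-like and granulocyte or monocyte-like, without osteocalcin-rich cells) served as the background reference, which holds free RNA and whatever these cells express.

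The members and gene lists were chosen with earlier results of these data known. Listed genes were named when called between genotypes, at most 8 per cell type of the osteogenic lineage, and the 3 most correlated genes per chain (among genes with a mean of at least 20 CPM in at least 1 cell type) were named.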

Additional observations from a re-analysis of the deposited data

Results flagged for a closer look

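Among 90 sets of 4 control mice, 6 had 1 mouse far from the other 3, with a gap over 0.829 of the whole range (Dixon's limit). Chance gives about 1 in 20. The first control mouse of 7 weeks was high for the type XI chains, with Col11a1 at 437.7 CPM in Lepr+ MSC-like cells (others 250.9 to 277.6 CPM) and at 8360.0 CPM in OB-like cells (others 6234 to 6562 CPM), and with Col11a2 at 154.91 CPM in Lepr+ MSC-like cells (others 124.2 to 125.5 CPM). In Lepr+ MSC-like cells of the 4 control mice, both chains were 0% of the pool after background subtraction without osteocalcin-rich cells. The Lepr+ MSC-like values are therefore not read as a trait of these cells. In preOB-like cells, the second control mouse of 13 weeks was low for Col11a1 at 640.23 CPM (others 1088 to 1174 CPM), and the first was high for Col11a2 at 480.22 CPM (others 141 to 187 CPM). In Lepr+ OP-like cells, Col5a2 of the second control mouse of 13 weeks was low at 247.49 CPM (others 414.5 to 442.5 CPM).

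Erythroid-like cells, one of the 3 classes merged as haematopoietic-like cells, carried a median of 1.6635 Col5a1 UMIs per cell over 8 mice (range 0.961 to 2.37), against 0.134 in granulocyte or monocyte-like cells (0.0270 to 0.239), while Col1a1 was at 26.4 and 19.01 UMIs per cell in the same classes. Haematopoietic progenitor-like cells, the remaining class, held medians of 0.297 Col5a1 and 13.9 Col1a1 UMIs per cell.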

How the results depend on the processing

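Over all results and settings, 744 values kept their direction and side of the threshold, 58 became weaker, 11 stronger, 42 moved and 9 reversed. The number of chains called between genotypes over both ages (1) was 0 with subtraction of the haematopoietic-like background (0 also without osteocalcin-rich cells, and 0 with a background without erythroid-like cells), 2 at a double doublet rate, 6 without a low-count filter and 4 with the replicate block, and 0 to 2 without 1 mouse. At 7 weeks (0) it was 3 without the filter and 1 with the block. At 13 weeks (0) it was 4 at the double doublet rate, 3 without the filter and 1 with the block, and 0 to 1 without 1 mouse. Between the ages (6) it was 0 with subtraction (0 without erythroid-like cells in the background), 3 at the double doublet rate (1 of them higher at 13 weeks), 26 without the filter (4 higher), 3 without osteocalcin-rich cells, 1 without these and with subtraction, and 1 to 9 without 1 mouse (1 of the 9 higher, without the first mutant mouse of 13 weeks). All genes called in OB-like cells (212) were 376 with DESeq2, 0 with subtraction (0 without osteocalcin-rich cells as well, and 0 without erythroid-like cells in the background), 771 without the filter, 1307 with the replicate block and 79 to 166 without 1 mouse. Col3a1 in OB-like cells was at 1.33 with subtraction, with or without osteocalcin-rich cells, and at 1.31 without erythroid-like cells in the background, and no longer passed, and without 1 mouse it was between 0.97 and 1.62. Subtraction also removes what haematopoietic-like cells express. The cause of the other changes was not tested. Shares of all genes called are given in this text only for the main fit and the replicate block. The counts of chains in the other settings are therefore not read as an excess of chains.

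Reversed values were Col27a1 in OB-like cells (-0.037 without the second control and -0.075 without the first mutant mouse of 7 weeks, -0.026 without the first mutant mouse of 13 weeks, 0.30 at most without 1 mouse), Col3a1 in Sca1+ MSC-like cells (-0.055 with mitochondrial UMIs up to 5%), Col3a1 in preOB-like cells (-0.25 without the first and 0.64 without the second mutant mouse of 13 weeks), Col11a2 in preOB-like cells (-0.37 without osteocalcin-rich cells and with subtraction, a fit that left too few UMIs for a usable SE) and the log2 ratio of Col1a1 to Col1a2 in Lepr+ MSC-like cells (0.033 without osteocalcin-rich cells, and -0.12 to 0.044 without 1 mouse) and Col1a1 in OB-like cells (-0.0074 with subtraction of a background without erythroid-like cells). None of these had passed. The settings on osteocalcin-rich and on erythroid-like cells were chosen after seeing the data. Pairs lie within an age, so the block was not run between ages. With 2 mice per group, a fit without 1 mouse assumes that the lone mouse varies like the other groups.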

Other observations

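Between 7 and 13 weeks, some genes that modify collagen chains were lower in cartilage cells, averaged over the genotypes. Here too, age cannot be told apart from the day of preparation. In GPC-like cells 4 of 21 tested genes of chain modification and folding fell and none rose, with a median log2 fold change of -0.33 over the list beside 0.00 over all genes tested (3.53% of genes called). These were P3h2 (-1.41 ± 0.18, adjusted p = 0.00198, edgeR), P3h1 (-0.57 ± 0.14), P4ha2 (-0.53 ± 0.13) and Plod1 (-0.70 ± 0.13), which encode prolyl and lysyl hydroxylases of collagen. In hypertrophic GPC-like cells, where 6.35% of genes were called, 4 of 21 also fell, P3h1, P3h2, P4hb and Plod3. P4ha2, a subunit of prolyl 4-hydroxylase, was lower in OB-like cells (log2 fold change -0.47 ± 0.10, adjusted p = 0.0432, edgeR, 1.78% of genes called) and in preOB-like cells (-0.70 ± 0.15, adjusted p = 0.0278, edgeR, 1.93% of genes called). Col10a1, the collagen of hypertrophic cartilage, was lower in GPC-like cells (-2.41 ± 0.40, adjusted p = 0.00929, edgeR), the 1 call among 22 other collagens tested there. In hypertrophic GPC-like cells, 3 of 20 other collagens were called, with Col10a1 lower (-1.05 ± 0.19, adjusted p = 0.00961) and Col13a1 (0.78 ± 0.13, adjusted p = 0.00729) and Col4a6 (1.14 ± 0.22, adjusted p = 0.0138, all edgeR) higher. In preOB-like cells 3 of 21 other collagens were called. Col6a1 and Col6a2, partner chains of type VI collagen, were lower, at -0.89 ± 0.16 and -0.91 ± 0.16 (adjusted p = 0.00933 for both, edgeR), and Col13a1, a transmembrane collagen, was higher at 1.13 ± 0.22 (adjusted p = 0.0166, edgeR). These genes were named after their values were seen.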
